A study of Mus musculus with 8 samples.

Results

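The genes described here encode the isoforms of glycolysis, lactate transport and the glycerol phosphate shuttle, the non-oxidative pentose phosphate pathway and glycogen metabolism, measured in mouse brown adipose tissue. They were taken as a list of 38 gene symbols, matched to the gene identifiers of the count tables, and all 38 were found among the 41388 genes counted in each of 8 libraries. Total RNA of the tissue was depleted of ribosomal RNA and sequenced. The 8 mice were all labelled C57BL/6J, kept at room temperature and fed regular chow. The 4 WT mice carried floxed Nampt alleles without a stated Cre (wild type, flox/flox). The 4 ANKO mice combined floxed Nampt with a Cre transgene under the promoter of adiponectin, a gene of adipocytes in white as well as brown fat. Nampt, the enzyme that makes nicotinamide mononucleotide in the salvage route to NAD+, is thus deleted in fat cells throughout the body and not in brown fat alone, and other cells of the tissue keep it. The labels give no age, sex or litter.

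Glycolysis splits glucose into pyruvate, and the step of glyceraldehyde phosphate dehydrogenase consumes NAD+, which lactate dehydrogenase or the glycerol phosphate shuttle restores. Most steps are served by isoforms from separate genes, and several of these (muscle phosphofructokinase, muscle phosphoglycerate mutase, beta-enolase, muscle glycogen phosphorylase) are the main forms of skeletal muscle. Brown fat takes up glucose when stimulated, burns part of it, stores part as glycogen and passes part to lipid synthesis.

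Library totals ran from 5738067 (ANKO4) to 49697156 (WT4) gene counts, and 3 counts corresponded to 0.0626 CPM (counts scaled to library size) in the deepest and 0.527 CPM in the shallowest library. Nampt itself had a mean level of 508 ± 42.2 CPM in WT mice against 72.3 ± 4.67 CPM in ANKO mice (SD, n = 4 each; log2 fold change -2.81, SE 0.12, edgeR adjusted p = 1.51e-07). Of 10 brown adipocyte markers, including Adipoq and Ucp1, 10 were lower in ANKO, with a summed level of 16635 to 24682 CPM in WT and 6026 to 10713 CPM in ANKO. Of 20 skeletal muscle markers, 16 were higher and 0 lower, and their sum ran from 228 to 3456 CPM in WT and from 12607 to 17859.5 CPM in ANKO. Macrophage markers (12 of 12 higher) summed to 160 to 209 CPM in WT and 1506 to 2498 CPM in ANKO, and fibroblast markers (4 of 4 higher) to 674 to 1012 CPM and 3016 to 5829 CPM. Lymphocyte markers (5 of 5 higher) summed to 1.78 to 2.53 CPM and 17.0 to 27.0 CPM, while erythroid (5 of 5) and endothelial markers (3 of 4) were lower. No marker was at 0 in all libraries. Since the tissue was sequenced whole, fewer cells of a type and less RNA per cell cannot be told apart in any value below.

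Glycolysis, pentose phosphate and glycogen genes did not move as a block. By edgeR's quasi-likelihood test, with Benjamini-Hochberg adjustment over all genes tested and an adjusted p under 0.05 as the limit, 12 of the 38 were higher in ANKO, 10 were lower and 16 did not pass. Across the 16705 genes tested, 58.2% passed (30.6% higher, 27.6% lower), so the members' share of 57.9% lay at the background. Their median log2 fold change was 0.07, against -0.01 for all genes tested, and the range ran from -2.35 to 5.18. In 20 members no ANKO library overlapped a WT library, with 9 higher and 11 lower in ANKO. Groups without overlap were found in 55.0% of all tested genes (28.7% higher, 26.4% lower). Genes that passed with a log2 fold change of 1 or more in size were 9 members higher and 6 lower, against 28.7% of all tested genes (21.4% higher, 7.24% lower). Without scaling beyond library totals, the median of all genes rose to 0.17 and the split over all genes moved from 5111 higher and 4615 lower to 5897 and 2940, while the members stood at 14 higher and 10 lower. By step of the pathway, with no test between steps and few genes in each, the counts were as follows. Of 22 genes from glucose entry to pyruvate, 10 were higher and 4 lower, with a median log2 fold change of 0.30. Of 5 genes of lactate handling and the glycerol phosphate shuttle, 1 was higher and 3 lower (median -1.12). Of 3 pentose phosphate genes none passed (median 0.20), and of 8 glycogen genes 1 was higher and 3 lower (median -0.41).

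**Figure D1:**
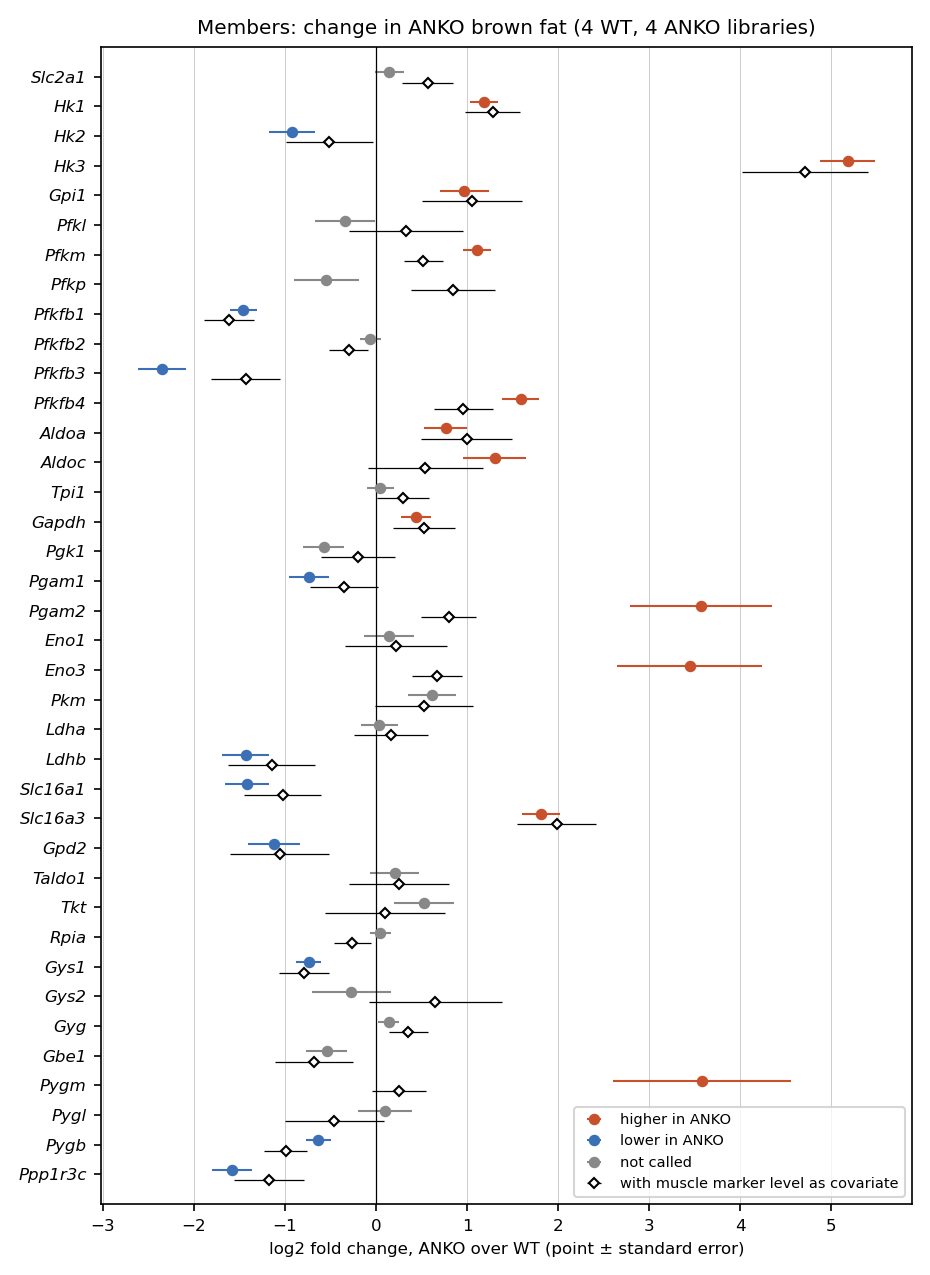
Log2 fold change (ANKO over WT) of the 38 genes, ordered by step of the pathway, with standard errors, from the edgeR fit over all genes; colours show the genes that passed in each direction, and open diamonds give the fit with muscle markers as covariate. Hk3 stood farthest up at 5.18 and Pfkfb3 farthest down at -2.35.

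Slc2a1, the basal glucose transporter GLUT1 and the only transporter of glucose among the 38 genes, did not pass. It ran from 11.5 to 16.1 CPM in WT and from 11.8 to 18.2 CPM in ANKO, with a log2 fold change of 0.15 (SE 0.16, edgeR adjusted p = 0.446), and the groups overlapped. The hexokinases, which trap glucose as its phosphate, moved in opposite directions. Hk2, the insulin-regulated isoform of fat and muscle (chromosome 6, 82725025 to 82774454, minus strand, GRCm38), stood at 753, 956, 1190 and 1101 CPM in WT1 to WT4 and at 679, 633, 507 and 292 CPM in ANKO1 to ANKO4. Every ANKO library lay below every WT library, and Hk2 fell by 0.92 on the log2 scale (SE 0.26, edgeR adjusted p = 0.0108). It did not pass without WT3 and WT4 (-0.71, edgeR adjusted p = 0.0894).

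Hk1, the broadly expressed isoform of chromosome 10 (62268855 to 62379908, minus strand), rose 2.27-fold. It stood at 34.2, 32.3, 28.5 and 37.8 CPM in WT and at 85.6, 86.4, 74.5 and 54.9 CPM in ANKO, again without overlap (log2 fold change 1.19, SE 0.15, edgeR adjusted p = 9.57e-05). Hk3, a hexokinase best known from myeloid cells (chromosome 13, 55005985 to 55021385, minus strand), stood at 1.34, 1.09, 0.98 and 0.93 CPM in WT. In ANKO it stood at 28.6, 24.3, 55.0 and 47.4 CPM. This was a 36.2-fold difference and the largest fold change among the 38 genes (log2 5.18, SE 0.30, edgeR adjusted p = 9.35e-07). The macrophage markers given above moved with it, as did the 5 neutrophil markers (summed level 1.04 to 1.17 CPM in WT and 6.11 to 10.1 CPM in ANKO, with the 1 tested marker higher). The part of either list in the level of Hk3 was not tested. Hk3 shares 34 exonic bases with Unc5a on the other strand, and strand use in the counting is not given in the sources used here.

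Gpi1, phosphoglucose isomerase, separated the ANKO mice from each other. It stood at 248, 253, 242 and 265 CPM in WT, a narrow range, and at 688, 639, 382 and 264 CPM in ANKO. After TMM scaling ANKO4 lay inside the WT range, while the other 3 ANKO libraries lay above it (log2 fold change 0.97, SE 0.27, edgeR adjusted p = 0.0103). On library totals alone ANKO4 lay above the WT range too. Without WT3 and WT4 Gpi1 did not pass, though its log2 fold change stayed at 0.96 while the error grew (SE 0.37, edgeR adjusted p = 0.0582). Of its coding transcripts, 24.5% of the 50-base stretches also occur in transcripts of other genes.

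Phosphofructokinase, the committed step, showed a change in the muscle isoform alone among those that passed. Pfkm stood at 169, 190.0, 122 and 130.5 CPM in WT and at 296, 324, 369 and 328 CPM in ANKO, without overlap, a 2.15-fold rise (log2 1.11, SE 0.16, edgeR adjusted p = 0.000189). Pfkl, the liver-type isoform, ranged from 675 to 999 CPM in WT and from 301 to 944 CPM in ANKO (log2 fold change -0.34, SE 0.33, edgeR adjusted p = 0.401). Pfkp, the platelet type, ranged from 130 to 378 CPM and from 109 to 222 CPM (log2 fold change -0.54, SE 0.35, edgeR adjusted p = 0.214). Both overlapped between the groups, and differences between the 3 isoforms were not tested.

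The bifunctional enzymes that make and break the allosteric activator of phosphofructokinase changed in 3 of 4 members. Pfkfb3, the isoform with the highest kinase activity relative to its phosphatase (chromosome 2, 11471430 to 11502101, minus strand), stood at 1204, 1385, 2452 and 2237 CPM in WT and at 304, 366, 456 and 304 CPM in ANKO. The lowest WT library was thus above the highest ANKO library, and the level was 5.09-fold lower in ANKO (log2 fold change -2.35, SE 0.26, edgeR adjusted p = 4.47e-05). Without WT3 and WT4, its 2 highest libraries, the log2 fold change was -1.87. Pfkfb1, the isoform named for liver and muscle, stood at 60.1, 49.1, 54.7 and 44.2 CPM in WT and at 21.2, 14.9, 22.3 and 16.9 CPM in ANKO. It was 2.74-fold lower without overlap (log2 fold change -1.45, SE 0.15, edgeR adjusted p = 2.35e-05). Pfkfb4 moved the other way, from 9.11, 7.96, 4.42 and 6.21 CPM in WT to 19.7, 20.1, 21.7 and 21.6 CPM in ANKO. The 4 ANKO values lay close together and the rise was 3.01-fold (log2 1.59, SE 0.20, edgeR adjusted p = 9.52e-05). Pfkfb2, the heart isoform, had a log2 fold change of -0.06 (SE 0.12, edgeR adjusted p = 0.675), and 25.0% of the 50-base stretches of its coding transcripts are shared with other genes.

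**Figure D2:**
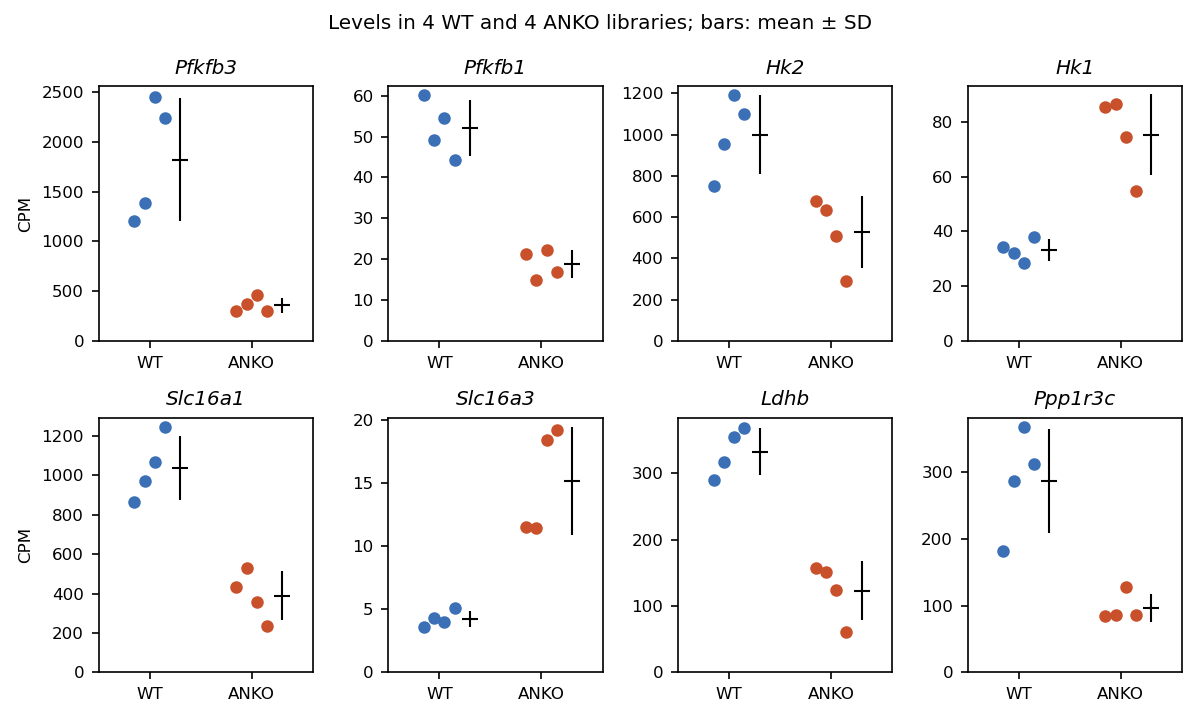
Levels of Pfkfb3, Pfkfb1, Hk2, Hk1, Slc16a1, Slc16a3, Ldhb and Ppp1r3c in scaled CPM, with 1 point per library and bars for the mean ± SD of each group of 4. No ANKO point overlaps a WT point in any of the 8 panels, and Pfkfb3 lay between 1204 and 2452 CPM in WT and between 304 and 456 CPM in ANKO.

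Aldolase, which splits the hexose into trioses, was carried by Aldoa, which held 99.9% of the summed aldolase level per kb in WT and 99.8% in ANKO. It stood at 2314, 2474, 2396 and 2935 CPM in WT and at 5389.6, 5337, 3789 and 2700.3 CPM in ANKO. After TMM scaling ANKO4 lay within the WT range and ANKO1 above all others (log2 fold change 0.77, SE 0.24, edgeR adjusted p = 0.0176). On library totals alone ANKO4 lay above the WT range. Without ANKO2 Aldoa did not pass (0.64, edgeR adjusted p = 0.0547), nor without WT3 and WT4, where its fold did not shrink but its error grew (0.83, SE 0.35, edgeR adjusted p = 0.076). Aldoc, the brain-type aldolase, stood at 4.51, 3.54, 1.65 and 2.73 CPM in WT and at 5.74, 6.34, 6.05 and 12.8 CPM in ANKO. Every ANKO library was above every WT library (log2 fold change 1.30, SE 0.35, edgeR adjusted p = 0.00868), and ANKO4 stood apart as the highest. Without WT3 and WT4 Aldoc did not pass (edgeR adjusted p = 0.0617).

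Of Tpi1, Gapdh, Pgk1 and Eno1, only Gapdh passed. Tpi1, triose phosphate isomerase, averaged 313 CPM in WT and 324 CPM in ANKO (log2 fold change 0.05, edgeR adjusted p = 0.795). Gapdh, the NAD+-dependent dehydrogenase, averaged 33.6 ± 2.65 CPM and 45.5 ± 11.2 CPM (SD, n = 4 each). Its groups overlapped after TMM scaling but not on library totals alone. Its log2 fold change of 0.44 (SE 0.17, edgeR adjusted p = 0.0432) did not pass in 7 of the 8 fits that left out 1 library. Pgk1, phosphoglycerate kinase, had groups that did not overlap, at means of 24.01 and 15.97 CPM, yet missed the limit (log2 fold change -0.57, SE 0.23, edgeR adjusted p = 0.0501). It was called in 9 of the 20 alternative fits. Eno1, the ubiquitous enolase, averaged 198 CPM and 218 CPM (log2 fold change 0.14, edgeR adjusted p = 0.684). Levels of these genes may be incomplete: 58.4% of the 50-base stretches in the coding transcripts of Gapdh are shared with 223 other genes, 215 of them pseudogenes. The share was 68.0% in Pgk1, 49.5% in Eno1 and 41.5% in Pgam1, and how reads with several matching places were counted is not given in the sources used here.

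Pyruvate kinase from Pkm, whose splice forms gene-level counts do not separate, stood at 1047, 1079, 845 and 1073 CPM in WT and at 2026, 2028, 1306 and 829.8 CPM in ANKO. It did not pass (log2 fold change 0.61, SE 0.27, edgeR adjusted p = 0.0703), and ANKO4 lay below all WT libraries after TMM scaling. On library totals alone ANKO4 lay inside the WT range. With ANKO4 left out, the log2 fold change was 0.82 (edgeR adjusted p = 0.00327). Pgam1, the non-muscle phosphoglycerate mutase, stood at 11.7, 14.9, 15.8 and 18.2 CPM in WT and at 11.6, 9.57, 9.27 and 5.39 CPM in ANKO. The groups touched without overlapping, and Pgam1 fell by 0.73 on the log2 scale (SE 0.22, edgeR adjusted p = 0.014). Without WT3 and WT4 it did not pass (edgeR adjusted p = 0.103).

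Pygm, Pgam2 and Eno3, the forms of glycogen phosphorylase, phosphoglycerate mutase and enolase that skeletal muscle uses, rose together. Pygm (chromosome 19, 6384399 to 6398459, plus strand) stood at 43.2, 111, 7.78 and 5.60 CPM in WT and at 382, 443, 594 and 584 CPM in ANKO. Pgam2 (chromosome 11, 5801640 to 5803733, minus strand) stood at 6.68, 20.5, 2.47 and 1.80 CPM in WT and at 73.7, 77.2, 114 and 101 CPM in ANKO. Eno3 (chromosome 11, 70657202 to 70662513, plus strand) stood at 35.6, 83.9, 10.4 and 7.42 CPM in WT and at 281, 337, 446 and 428 CPM in ANKO. In each of them WT2 was the highest WT library, WT3 and WT4 were the lowest, and no ANKO library overlapped WT. The log2 fold changes were 3.58 for Pygm (SE 0.98, edgeR adjusted p = 0.0156), 3.57 for Pgam2 (SE 0.78, edgeR adjusted p = 0.00589) and 3.45 for Eno3 (SE 0.79, edgeR adjusted p = 0.00739). Without WT2 they were 4.75, 4.71 and 4.40.

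The summed level of the 20 skeletal muscle markers moved with these genes. It was 1312, 3456, 329.9 and 228 CPM in WT1 to WT4 and 12607, 14066, 17859.5 and 17272 CPM in ANKO1 to ANKO4, a 78.4-fold span between the highest and the lowest library. Per 1000 CPM of markers, Pygm stood at 23.6 to 32.9 CPM in WT and 30.3 to 33.8 CPM in ANKO. Pgam2 stood at 5.10 to 7.90 CPM and 5.49 to 6.41 CPM, and Eno3 at 24.3 to 32.6 CPM and 22.3 to 25.0 CPM. Set against the markers, the groups therefore overlapped in all 3 genes. Pfkm stood at 55.0 to 573 CPM in WT and 19.0 to 23.5 CPM in ANKO on that scale. Between WT2 and WT4 its level differed 1.46-fold, against 15.2-fold for the marker sum. The ratio of such a gene falls as the markers rise, so it does not tell whether Pfkm changed beyond the muscle content. When the mean log2 CPM of the muscle markers entered the fit as a covariate, the log2 fold changes were 0.26 for Pygm (SE 0.29, edgeR adjusted p = 0.585), 0.80 for Pgam2 (SE 0.30, edgeR adjusted p = 0.0911), 0.67 for Eno3 (SE 0.27, edgeR adjusted p = 0.109) and 0.52 for Pfkm (SE 0.22, edgeR adjusted p = 0.117). In that fit 3 members were higher (Hk1, Hk3 and Slc16a3) and 3 lower (Pfkfb1, Pfkfb3 and Pygb), while 16 of the 22 that passed before did not, and 20.6% of all genes passed (12.0% higher, 8.60% lower). The fold of several lost calls stayed about as large while its error grew: the log2 fold change was 1.05 for Gpi1 (SE 0.55), 0.996 for Aldoa (SE 0.50), 0.53 for Gapdh (SE 0.34), -1.05 for Gpd2 (SE 0.54) and -0.79 for Gys1 (SE 0.28). It was -1.15 for Ldhb (SE 0.47) and -0.51 for Hk2 (SE 0.47). Every ANKO library had more of the muscle markers than every WT library, so genotype and marker level cannot be told apart, and the median SE over all genes rose from 0.18 to 0.31.

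**Figure D3:**
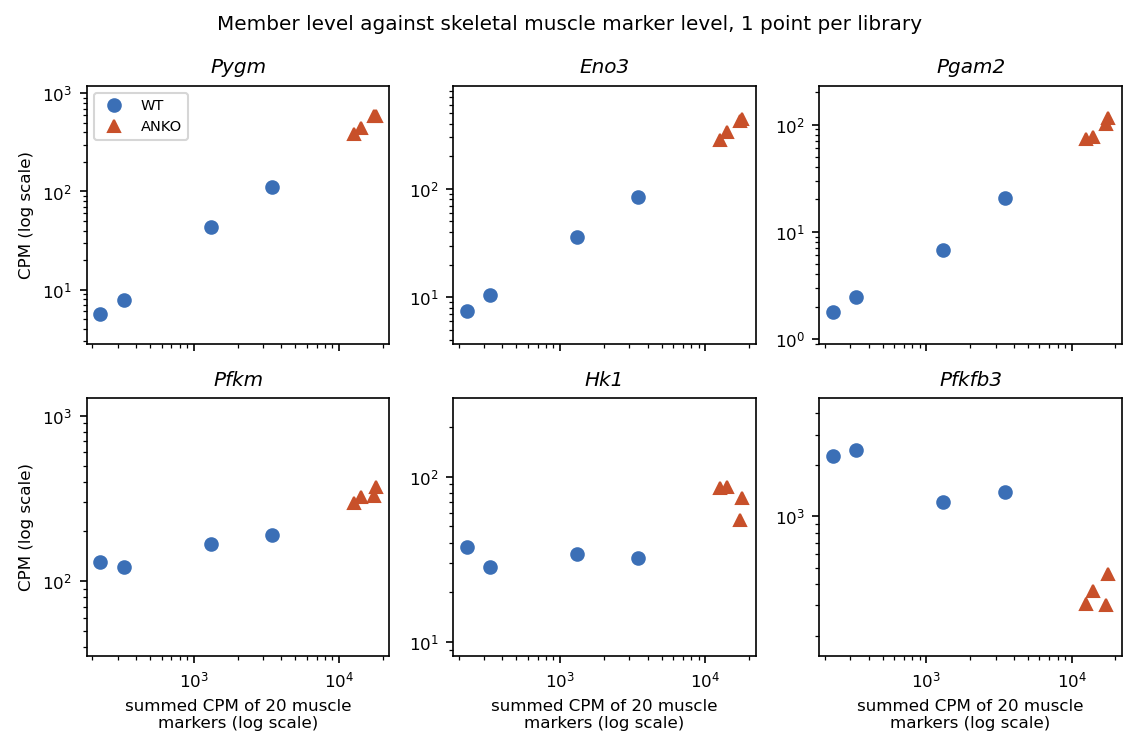
Levels of Pygm, Eno3, Pgam2, Pfkm, Hk1 and Pfkfb3 (CPM) in each library against the summed CPM of the 20 skeletal muscle markers, both axes logarithmic, with circles for WT and triangles for ANKO. Pygm, Pgam2 and Eno3 climbed with the marker sum within WT (228 to 3456 CPM) as well as into ANKO (12607 to 17859.5 CPM), while Hk1 lay at 28.5 to 37.8 CPM in all 4 WT libraries.

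The promoters of these 3 genes are printed because their transcripts moved together with muscle markers. Each is the 250 bases before the RefSeq start site (GRCm38.p6), given 5′ to 3′ on the gene's own strand. They lie at chr19:6384158-6384407 (Pygm, plus strand), chr11:5803797-5804046 (Pgam2, minus strand) and chr11:70656926-70657175 (Eno3, plus strand). Capitals mark the E-box CAGCTG, a sequence that myogenic factors of the MyoD family bind, and the MEF2 motif, both searched on either strand.
Pygm: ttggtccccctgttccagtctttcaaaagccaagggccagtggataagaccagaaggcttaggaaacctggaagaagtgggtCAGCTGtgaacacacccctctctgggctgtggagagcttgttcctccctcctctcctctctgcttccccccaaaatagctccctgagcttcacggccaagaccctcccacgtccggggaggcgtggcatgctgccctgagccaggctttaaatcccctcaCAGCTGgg
Pgam2: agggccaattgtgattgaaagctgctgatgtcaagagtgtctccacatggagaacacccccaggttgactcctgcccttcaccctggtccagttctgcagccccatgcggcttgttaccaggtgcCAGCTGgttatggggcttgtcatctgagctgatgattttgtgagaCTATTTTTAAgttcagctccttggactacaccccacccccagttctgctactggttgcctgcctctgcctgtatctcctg
Eno3: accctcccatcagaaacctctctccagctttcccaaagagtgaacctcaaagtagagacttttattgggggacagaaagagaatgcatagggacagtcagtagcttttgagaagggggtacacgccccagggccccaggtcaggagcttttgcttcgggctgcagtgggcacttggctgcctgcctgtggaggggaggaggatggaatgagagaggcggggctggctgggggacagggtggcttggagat
The Pygm promoter held the E-box at 168 and 8 bases before the start, counted to the first base of the match, and no MEF2 motif. The Pgam2 promoter held 1 E-box at 125 and 1 MEF2 motif at 80 bases before the start, and the Eno3 window held neither. Of 32851 RefSeq promoters of the same length, 13.0% held the E-box and 2.92% the MEF2 motif, and the matches are a description of sequence only.

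Of the 4 genes of lactate handling, Ldhb and Slc16a1 were lower, Slc16a3 was higher and Ldha did not pass. Ldhb, the heart-type subunit of lactate dehydrogenase, stood at 290.2, 318, 354 and 369 CPM in WT and at 157, 151, 124 and 60.3 CPM in ANKO. Every ANKO library was below every WT library, and Ldhb fell by 1.43 on the log2 scale (SE 0.26, edgeR adjusted p = 0.000989). Ldha, the muscle-type subunit, averaged 759 CPM and 777 CPM with overlapping groups (log2 fold change 0.04, edgeR adjusted p = 0.894). A pseudogene shares 21.0% of the 50-base stretches of Ldhb.

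Slc16a1, the lactate and pyruvate carrier MCT1, stood at 863, 974, 1067 and 1244 CPM in WT and at 432, 531, 355 and 236 CPM in ANKO. It fell by 1.42 on the log2 scale without overlap (SE 0.24, edgeR adjusted p = 0.000586). Slc16a3, the carrier MCT4 that is known for lactate export from glycolytic cells, stood at 3.61, 4.35, 4.00 and 5.07 CPM in WT and at 11.6, 11.4, 18.4 and 19.2 CPM in ANKO. It rose by 1.81 without overlap (SE 0.21, edgeR adjusted p = 5.73e-05). Of the summed level of both carriers per kb, Slc16a3 made up 0.34% in WT and 3.61% in ANKO. Gpd2, the mitochondrial glycerol phosphate dehydrogenase that is abundant in brown fat, stood at 1459, 1603, 1494 and 1653 CPM in WT and at 946, 919.7, 657 and 330.5 CPM in ANKO. The groups were far apart, ANKO4 was lowest, and Gpd2 fell by 1.12 on the log2 scale (SE 0.29, edgeR adjusted p = 0.00683).

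The non-oxidative pentose phosphate genes did not pass in any of the 3 members. Tkt, transketolase, stood at 3701, 3197, 2104 and 2699 CPM in WT and at 5835, 5505, 3633 and 1938 CPM in ANKO (log2 fold change 0.53, SE 0.33, edgeR adjusted p = 0.191). ANKO4 was the lowest of all 8 libraries after TMM scaling, but lay above WT3 on library totals alone. Without ANKO4 the log2 fold change was 0.77 (edgeR adjusted p = 0.0141). Taldo1, transaldolase, kept to 513 to 532 CPM in WT and stood at 809.6, 813, 480.5 and 309 CPM in ANKO. ANKO1 and ANKO2 lay above and ANKO3 and ANKO4 below all WT libraries (log2 fold change 0.20, SE 0.27, edgeR adjusted p = 0.539). On library totals alone, only ANKO4 lay below all WT libraries. Rpia, ribose phosphate isomerase, had a log2 fold change of 0.05 (edgeR adjusted p = 0.748).

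Of the 5 members on the synthesis side of glycogen, Gys1 and Ppp1r3c fell and 3 did not pass. Gys1, the glycogen synthase of muscle and most tissues, stood at 282, 264, 286 and 245 CPM in WT and at 177, 188, 157 and 122 CPM in ANKO, without overlap (log2 fold change -0.74, SE 0.14, edgeR adjusted p = 0.00127). Ppp1r3c, which brings protein phosphatase 1 to glycogen and so favours its synthesis, stood at 182, 286, 367 and 313 CPM in WT and at 85.2, 86.7, 127 and 86.1 CPM in ANKO. It fell by 1.58 on the log2 scale (SE 0.22, edgeR adjusted p = 0.000175), with 3 ANKO libraries within 85.2 to 86.7 CPM. Gbe1, the branching enzyme, averaged 396 CPM and 272 CPM and missed the limit (log2 fold change -0.54, SE 0.22, edgeR adjusted p = 0.0571). Gys2, the liver-type synthase, had a log2 fold change of -0.27 (SE 0.43, edgeR adjusted p = 0.618). Gyg, the protein primer glycogenin, had one of 0.14 (edgeR adjusted p = 0.315).

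The glycogen phosphorylases, which release glucose phosphate from the chain, each did something different. Pygm rose as described above. Pygb, the brain-type enzyme, stood at 250.1, 201, 175 and 174 CPM in WT and at 133, 126, 143 and 114 CPM in ANKO. Its groups did not overlap, and it fell by 0.63 on the log2 scale (SE 0.14, edgeR adjusted p = 0.00261). Pygl, the liver-type enzyme, stood at 869, 808, 453 and 634 CPM in WT and at 981, 903, 685 and 381 CPM in ANKO, and the groups overlapped (log2 fold change 0.09, edgeR adjusted p = 0.803).

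The make-up of several isoform families shifted when each gene was scaled by its length (CPM per kb) and given as a share of its family. Hk2 made up 97.5% ± 0.645 of the hexokinase level in WT and 80.7% ± 7.13 in ANKO (SD, n = 4 each). The rest in ANKO was divided between Hk1 at 8.34% and Hk3 at 10.97%. Pfkm made up 20.1% of the phosphofructokinase level in WT and 42.4% in ANKO, next to 70.6% and 51.3% for Pfkl. Pfkfb3 was the main isoform of its family in both groups, at 93.2% and 80.3%, and Pfkfb4 went from 0.73% to 8.45%. The shares of Hk2, Pfkm, Pfkfb3 and Pfkfb4 did not overlap between the groups.

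Further down the pathway, Ldha held 51.99% to 56.9% of lactate dehydrogenase in WT and 75.9% to 80.9% in ANKO. Its own level did not pass the test, and the share moved with the fall of Ldhb. Pgam2 went from 43.4% to 95.5% of phosphoglycerate mutase and Eno3 from 29.3% to 83.5% of enolase, both with wide WT spreads (17.7% to 75.0% and 9.62% to 56.7%). Without scaling by length these means were 29.2% and 90.7% for Pgam2 and 13.4% and 63.4% for Eno3. Their partners Pgam1 and Eno1 share sequence with pseudogenes as given above, and the part of that in the shares was not tested. Pygm went from 4.74% to 42.6% of glycogen phosphorylase, Pygl from 76.9% to 50.2% and Pygb from 18.3% to 7.19%. In the glycogen synthases the share of Gys1 overlapped between the groups, at 68.5% and 63.2%. All shares are descriptions without a test.

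**Figure D4:**
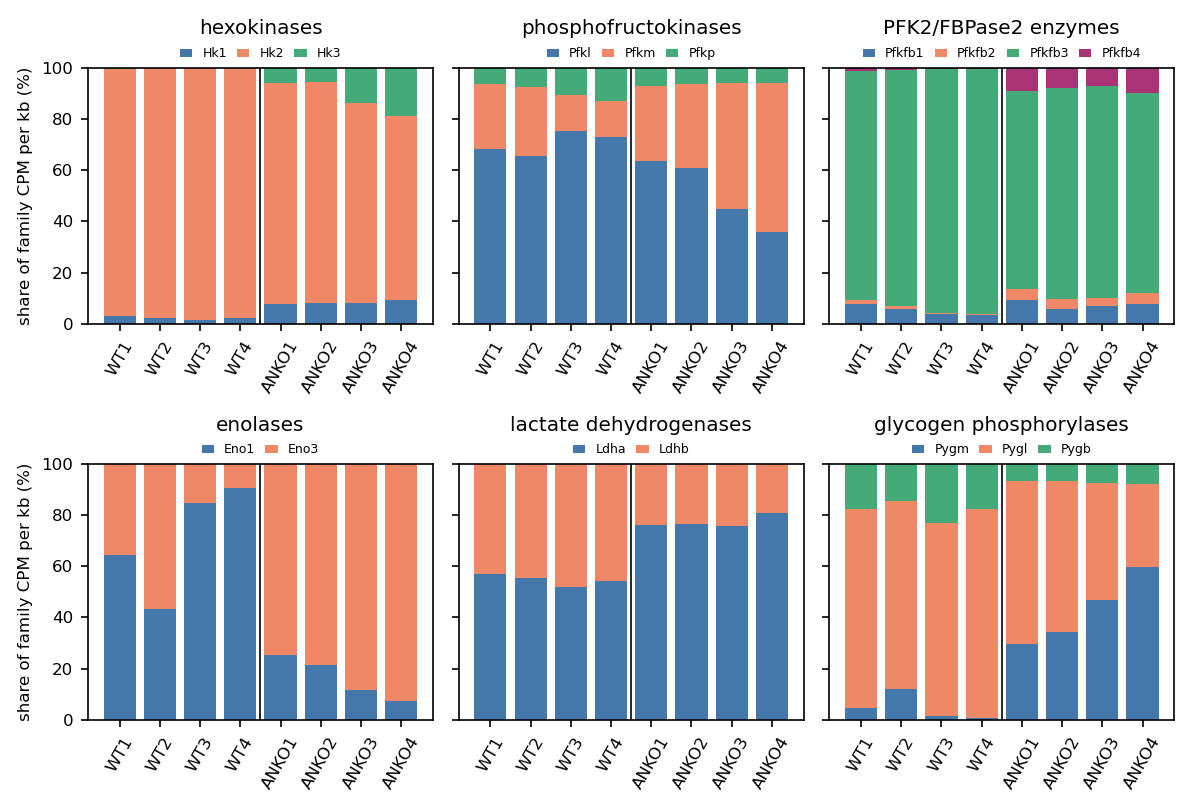
Share of each isoform in its family's summed CPM per kb (percent), as stacked bars for each of the 8 libraries in 6 isoform families. Hk1 and Hk3 took more of the hexokinases in the ANKO libraries, Ldhb took less of lactate dehydrogenase, and Eno3 and Pygm were smallest in WT3 and WT4.

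On the same length scale, Aldoa was the highest of the 38 genes in both groups, at 919 CPM per kb in WT and 1563 in ANKO. Tkt (448 and 647), Pkm (389 and 595) and Taldo1 (262 and 302) followed in both. Pfkfb3 was the fifth in WT at 259 CPM per kb and only at rank 19 in ANKO at 50.9. Eno3 went from rank 24 to rank 6 and Pygm from rank 26 to rank 8. The order is one of counted reads and may differ from true abundance. Gapdh (13.1 CPM per kb in WT), Pgk1 (10.7) and Pgam1 (8.27) share much sequence with pseudogenes, while Tkt shares none. How many reads were lost that way is not known. Summed over all 38 genes, the level was 17050.2, 17648, 17379 and 19214 CPM in WT. In ANKO it was 23332, 22953, 16921 and 11221 CPM, so the ANKO libraries lay on both sides of WT. Before TMM scaling ANKO3 stood above WT, at 17903 CPM against 15814 to 17610 CPM, and ANKO4 stayed below at 13530 CPM. Aldoa and Tkt together made up 25.9% to 35.3% of the scaled sum in WT and 41.3% to 48.1% in ANKO.

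ANKO4, the shallowest library, was the lowest of the ANKO group in 26 of the 38 genes, against 36.1% of all genes tested. Those 26 include Hk1, Hk2, Gpi1, Aldoa, Ldhb, Slc16a1, Gpd2 and Gys1. In 3 genes ANKO4 was instead the highest of the ANKO group: Aldoc (12.8 CPM), Slc16a3 (19.2 CPM) and Pfkfb2 (17.5 CPM). Pygm, Pgam2, Eno3 and Pfkm had their highest value in ANKO3. ANKO4 also had the lowest brown adipocyte marker sum of the ANKO group, at 6026 CPM against 8914 to 10713 CPM. Its fibroblast marker sum was the highest, at 5829 CPM against 3016 to 3933 CPM. ANKO4 had the largest TMM factor too, at 1.21, so its place among the other libraries depends on the scaling. The part of the depth, the scaling or the cell make-up of ANKO4 in these values was not tested.

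**Figure D5:**
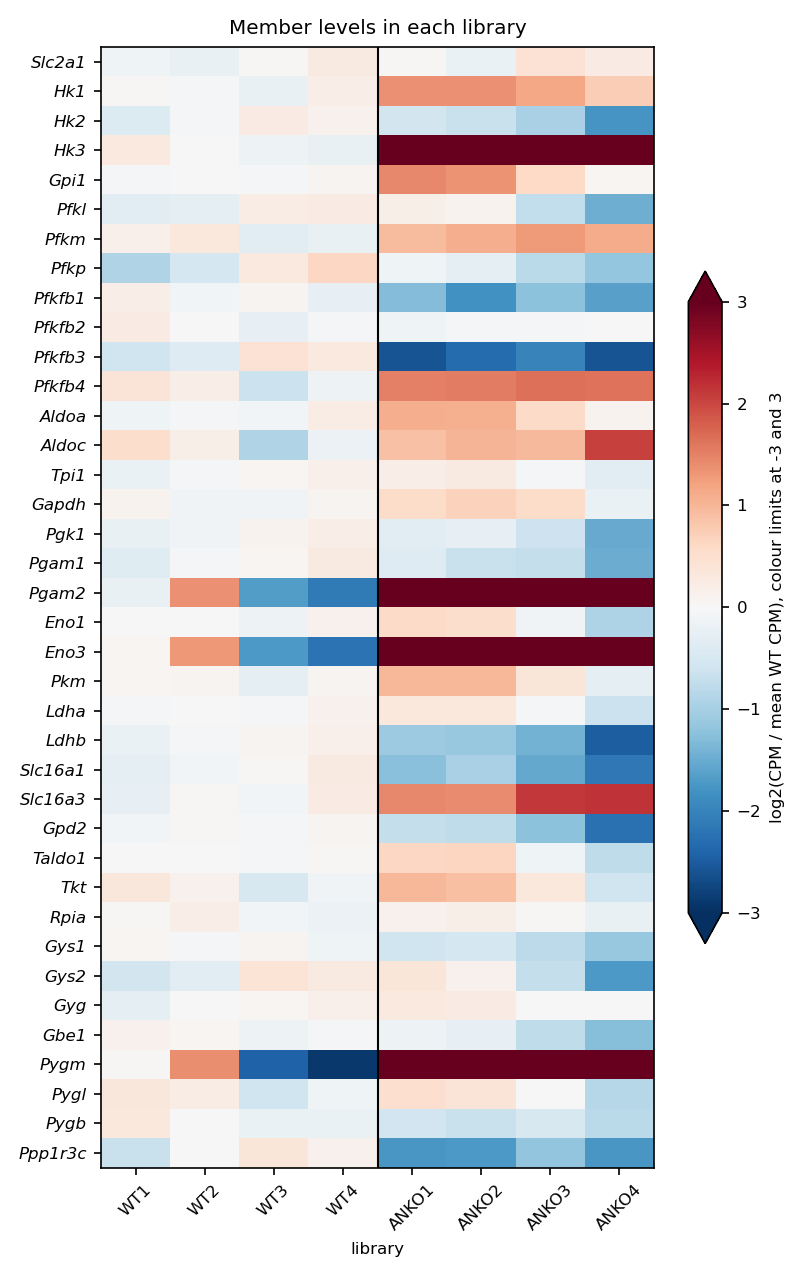
Level of each of the 38 genes in each library relative to that gene's mean over the WT libraries, on a log2 colour scale with limits at -3 and 3. WT1 and WT2 were above WT3 and WT4 in Pygm, Pgam2 and Eno3, and ANKO4 was the lowest ANKO library in 26 genes.

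Of 64 further genes of the same pathways, 57 were tested, and 13 were higher, 14 lower and 30 did not pass (47.4% passed, against 58.2% of all genes tested), with a median log2 fold change of -0.13. Without scaling beyond library totals the split was 21 higher and 8 lower. In the oxidative pentose phosphate branch, Pgd, phosphogluconate dehydrogenase, rose from 153 to 415 CPM (log2 1.44, SE 0.26, edgeR adjusted p = 0.000896). Pgls, the lactonase of the same branch, fell from 169.7 to 74.6 CPM (log2 -1.18, edgeR adjusted p = 6.15e-05). G6pdx, the entry enzyme of that branch, did not pass (log2 0.19, edgeR adjusted p = 0.605). Rpe, the epimerase of the non-oxidative branch that is not among the 3 members above, fell from 96.2 to 50.9 CPM (log2 -0.92, edgeR adjusted p = 0.000169). The glucose transporter Slc2a12 fell from 7.62 to 4.98 CPM, by 0.59 on the log2 scale (SE 0.20, edgeR adjusted p = 0.0253). The far more abundant Slc2a4, at 583 and 444 CPM, did not pass (log2 -0.39, edgeR adjusted p = 0.154). Slc2a3 (edgeR adjusted p = 0.489) and Slc2a8 (edgeR adjusted p = 0.133) did not pass either. These glucose transporters and G6pdx are named after their values were seen. Pck1, which feeds glyceroneogenesis in fat, fell from 7382 ± 1448 to 1018 ± 289 CPM (SD, n = 4 each), the largest fall among these genes (log2 -2.86, SE 0.26, edgeR adjusted p = 1.06e-05). Slc16a7, the carrier MCT2, fell from 32.8 to 8.73 CPM (log2 -1.91, edgeR adjusted p = 5.17e-05), and Ldhd, the D-lactate dehydrogenase, from 214 to 70.7 CPM (log2 -1.59, edgeR adjusted p = 4.56e-05).

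Among regulators of glycogen, the muscle subunits of phosphorylase kinase rose. Phka1, the muscle alpha subunit of phosphorylase kinase, rose from 46.1 to 103 CPM (log2 1.17, SE 0.10, edgeR adjusted p = 6.82e-06). Phkg1, its muscle catalytic subunit, rose from 4.59 to 33.5 CPM (log2 2.89, SE 0.44, edgeR adjusted p = 0.00061). Both also passed with the muscle marker covariate (0.83, edgeR adjusted p = 0.00483, and 1.11, edgeR adjusted p = 0.0322). Per 1000 CPM of muscle markers, both were lower in ANKO without overlap. Phka1 stood at 15.3 to 180 CPM in WT and 6.12 to 7.63 CPM in ANKO on that scale. Phkg1 stood at 2.51 to 10.1 CPM and 2.10 to 2.32 CPM. Between WT2 and WT4 the marker sum differed 15.2-fold, Phka1 1.28-fold and Phkg1 3.77-fold. The ratio of a gene that follows the markers less than in proportion falls as they rise, so it cannot decide this question. Genotype and marker level cannot be told apart in the covariate fit either. Whether Phka1 or Phkg1 rose beyond the muscle content is therefore not settled. Ppp1r3a, the muscle glycogen-targeting subunit, averaged 7.58 and 102 CPM (log2 3.78, SE 1.11, edgeR adjusted p = 0.0214). It did not pass without WT1 (3.78, edgeR adjusted p = 0.0607) or without ANKO4 (3.69, edgeR adjusted p = 0.0525), and without WT2 its log2 fold change was 5.27. With the muscle covariate its sign turned (-0.48, SE 0.29, edgeR adjusted p = 0.276). Ppp1r3d, another targeting subunit, fell from 56.6 to 24.0 CPM (log2 -1.23, edgeR adjusted p = 0.00162). Ugp2, which makes the UDP-glucose used for glycogen, rose from 175 to 334 CPM (log2 0.93, edgeR adjusted p = 0.003). Myc, a transcription factor known to drive glycolytic genes, rose from 3.08 to 11.7 CPM (log2 1.89, edgeR adjusted p = 0.000667).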

How the data were processed

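RNA of brown adipose tissue was sequenced from 4 WT and 4 ANKO mice. The submitters' processing notes name STAR 2.0.4b, featureCounts 1.45 (Subread) and GRCm38. Not given in the sources used here were the annotation release, the strand setting and how multi-mapping reads were handled. Per the file headers, the authors deposited a whole-number count, a CPM and an RPKM for each of 41388 genes. The deposited counts entered the tests. The deposited CPM and RPKM were not used as levels: CPM in the text were computed again from the counts and TMM-scaled library sizes.

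Symbols came from GENCODE M21 by Ensembl ID (40340 matched). The 355 rRNA rows were left out (2.83% to 3.53% of counts in WT, 0.801% to 1.13% in ANKO). Library totals ran from 5738067 to 49697156, and floors of 3 counts cover counting error only. The closest libraries (ANKO1 and ANKO2) differed by a chi-square of 6.95 per degree of freedom, so none was counted as a duplicate. Genes were filtered with filterByExpr and tested with edgeR 4.0.16 (R 4.3.3, quasi-likelihood, robust, no covariate, all 8 libraries), adjusted by Benjamini-Hochberg over 16705 genes, with an adjusted p under 0.05 called. The biological coefficient of variation was 20.6%. The script was tested on simulated counts. Standard errors derive from the F statistic.

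Alternatives were other scalings, other filters, DESeq2 1.42.0, limma-voom (3.58.1), a replicate block, fits without each library in turn, WT3 and WT4 left out together, protein-coding genes alone, rRNA rows kept, the mean log2 CPM of 20 muscle markers as a covariate, and stricter thresholds. All 38 members are named. Of 64 further pathway genes, those called with a mean of at least 5 CPM are named, up to 6 in each direction by size of change. The further glucose transporters and G6pdx are named besides. Members and lists were chosen with earlier results of these data known. Promoters came from RefSeq (GRCm38.p6), where 37 of the 38 members matched. Shared sequence was measured as 50-base stretches of GENCODE transcripts. Figures were drawn with matplotlib 3.10.9.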

Additional observations from a re-analysis of the deposited data

Results flagged for a closer look

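Of 100 groups of 4 libraries checked, 6 held a library whose gap to its nearest neighbour took more of the group's range than Dixon's 95% critical value, and chance flags about 1 in 20 groups. Among the members, ANKO4 stood above the other ANKO libraries in Aldoc (0.915 of the range), WT3 stood below the other WT libraries in Pkm (0.867), and ANKO3 stood above the others in Ppp1r3c (0.965). Among the further pathway genes, ANKO3 was high in Slc16a7 (0.850), and WT3 was high in Ldhd (0.941) and in Rpe (0.895).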

How the results depend on the processing

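Hk1, Hk3, Pfkfb1, Pfkfb3, Slc16a3 and Pygb passed in the same direction under all 20 alternative fits. Leaving out 1 library at a time gave 10 to 14 members higher and 10 to 12 lower, 12 to 13 further pathway genes higher and 11 to 15 lower, and 4780 to 5555 genes higher and 4098 to 4912 lower. With no scaling beyond totals 2940 genes were lower, and the further pathway genes split 21 higher and 8 lower. With the muscle marker covariate 2011 genes were higher and 1436 lower, members 3 and 3, further pathway genes 2 and 7, and Ppp1r3a turned to -0.48; the cause was not tested. Requiring a log2 fold change of 1 or more in size left 1209 genes, 6 members and 5 further genes lower, and an adjusted p under 0.01 left 9 further genes lower. With the replicate number as a block, 10 members were higher and 11 lower (Aldoa and Gapdh no longer passed, Gbe1 did); for all genes the block gave 4961 and 4278, and for the further genes 13 and 13. Deviations of same-numbered libraries correlated at -0.05 to 0.11, and 2 of 4 WT libraries correlated best with their own number. Correlations this weak cannot decide whether the numbers pair the mice, and the labels give no litter. Without WT3 and WT4, Hk2, Gpi1, Aldoa, Aldoc, Gapdh and Pgam1 did not pass. The log2 fold changes of Gpi1 (0.96), Aldoa (0.83) and Gapdh (0.43) stayed about as large there, with larger errors. Those of Hk2 (-0.71), Aldoc (0.89) and Pgam1 (-0.55) were smaller in size. The 9 members whose sign changed under some setting (Eno1, Gys2, Ldha, Pfkfb2, Pfkl, Pfkp, Pygl, Rpia and Tpi1) were not called in the main comparison. Isoform shares moved by more than the replicate spread in 26 of 50 values when genes were not scaled by length. Depth limits low genes most in ANKO4.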
